A study of Mus musculus with 29 samples.

Results

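The effect of JAK2 V617F was measured in megakaryocyte-erythrocyte progenitors (MEPs) that had lost both copies of Ezh2. Libraries were chosen by their titles: 6 V617F Ezh2 -/- libraries, all labelled female, were set against 4 Ezh2 -/- libraries without V617F, 3 labelled female and 1 (replicate 4) male. These are 10 of the 29 mouse RNA-seq libraries of the series, which hold the same V617F comparison in Ezh2 +/- (6 against 4) and Ezh2 +/+ (4 against 5). The titles name SclCre in all V617F groups and ScleCre in all groups without V617F, read here as the same transgene. On that reading, both groups compared here shared the Cre and the loss of Ezh2 and differed in the V617F allele. RNA came from 230,000 sorted MEPs per library. The ages of the mice, the sorting gates, the part of Ezh2 that was deleted, and how the V617F allele was built are not stated in the labels, which call the libraries of a group only replicates, so that p-values measure the spread between these libraries.

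MEPs are the marrow progenitors that give rise to the megakaryocytes that shed platelets and to red cells. JAK2 is the kinase bound to the erythropoietin receptor (EPOR) and other cytokine receptors; on ligand binding it phosphorylates STAT5, which switches on target genes that include the feedback inhibitors CISH and the SOCS proteins. The V617F change keeps JAK2 active without ligand and is a driver of the myeloproliferative neoplasms. EZH2 is the catalytic subunit of the Polycomb repressive complex PRC2, which places the repressive H3K27 methyl mark on genes, and its loss occurs together with V617F in myelofibrosis.

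The 10 libraries held 31583023 to 47124571 counts in V617F Ezh2 -/- and 47784415 to 56696455 counts in Ezh2 -/-, and 15703 to 16387 genes with at least 1 count. Levels are CPM, the library-size-scaled counts after TMM normalization; 3 counts in a single library correspond to 0.0529 to 0.095 CPM, and this floor covers counting error only. Changes are log2 fold changes ± SE, V617F Ezh2 -/- over Ezh2 -/-, from edgeR's quasi-likelihood model over all 29 libraries with a term for labelled sex. A gene is called higher or lower at a Benjamini-Hochberg adjusted p under 0.05 over the 13928 tested genes. CPM is not divided by gene length, so levels are compared between libraries and not between genes. The first principal component of the 10 libraries held 70.6% of the variance and separated both groups, with V617F Ezh2 -/- replicates 1, 5 and 6 nearer to the Ezh2 -/- libraries than replicates 2, 3 and 4. Among the libraries of the other genotypes, V617F Ezh2 +/+ replicate 1, labelled female, went against its labelled sex in sex-linked transcripts. Xist and Y-linked genes summed to 1.01 CPM in the lowest library of its group, which showed almost no transcripts of either sex. In every library of the other groups they summed to at least 248.5 CPM. In bulk RNA, more cells of a type and more RNA per cell cannot be told apart.

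Kit and Gata1, taken as MEP genes, were detected in both groups. Their levels alone do not identify the sorted cells. Most stem and multipotent progenitor genes and all tested neutrophil granule genes, described below, were higher with V617F. Kit, the stem cell factor receptor, averaged 439.7 ± 46.5 CPM in V617F Ezh2 -/- and 495 ± 51.8 CPM in Ezh2 -/-. Gata1, the erythro-megakaryocytic master factor, averaged 229.6 ± 18.7 CPM in V617F Ezh2 -/- and 283 ± 19.2 CPM in Ezh2 -/-. The Ezh2 transcript, which checks the labels, averaged 55.0 ± 3.10 CPM in V617F Ezh2 -/- and 73.4 ± 5.89 CPM in Ezh2 -/-, against 303 ± 20. CPM in Ezh2 +/+ libraries without V617F. It measured 51.2 to 59.5 CPM (median 54.9) in the 6 V617F Ezh2 -/- libraries, against 79.5, 77.5, 68.9 and 67.9 CPM in the 4 Ezh2 -/- libraries, and was lower with V617F (log2 -0.41 ± 0.08, adjusted p = 0.00095). Jak2 RNA, counted without regard to allele, measured 227 to 244 CPM (median 237) in the 6 V617F Ezh2 -/- libraries, against 179, 188, 165 and 177 CPM in the 4 Ezh2 -/- libraries, and was higher with V617F (log2 0.41 ± 0.05, adjusted p = 8.7e-06). The groups did not overlap for either gene.

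V617F changed 5795 of 13928 tested genes (41.6%) in MEPs without Ezh2. Of these, 2665 were higher (19.1% of tested genes) and 3130 lower (22.5%). The counts of list members below stand against these shares. Which direction held more genes depended on the processing, since DESeq2 gave 3138 higher and 2814 lower. The increases were larger than the decreases, since the median log2 change was 1.02 among genes called higher and -0.29 among genes called lower, against -0.03 over all tested genes. A called change of at least 1 on the log2 scale was reached by 1347 genes upward (9.67%) and 239 downward (1.72%), and of at least 3 by 275 upward (1.97%) and 4 downward (0.0287%). The groups did not overlap for 5261 genes (37.8%), 2645 of them higher in all V617F Ezh2 -/- libraries and 2616 lower. Leaving out Ezh2 -/- replicate 3 gave 3197 called genes (1592 higher, 1605 lower), and without V617F Ezh2 -/- replicate 2 or 4 the genes called lower numbered 2036 or 2083. Ezh2 -/- replicate 3 carried more named calls than any other library. Without it, 39 of those printed in this report did not pass, and they are named in the paragraphs they belong to. Most losses in a replicate block, a fit with replicate numbers as terms, are named only at the end. The plot of fold change against level shows the tall upper arm and the shallow, dense lower arm of called genes.

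**Figure D1:**
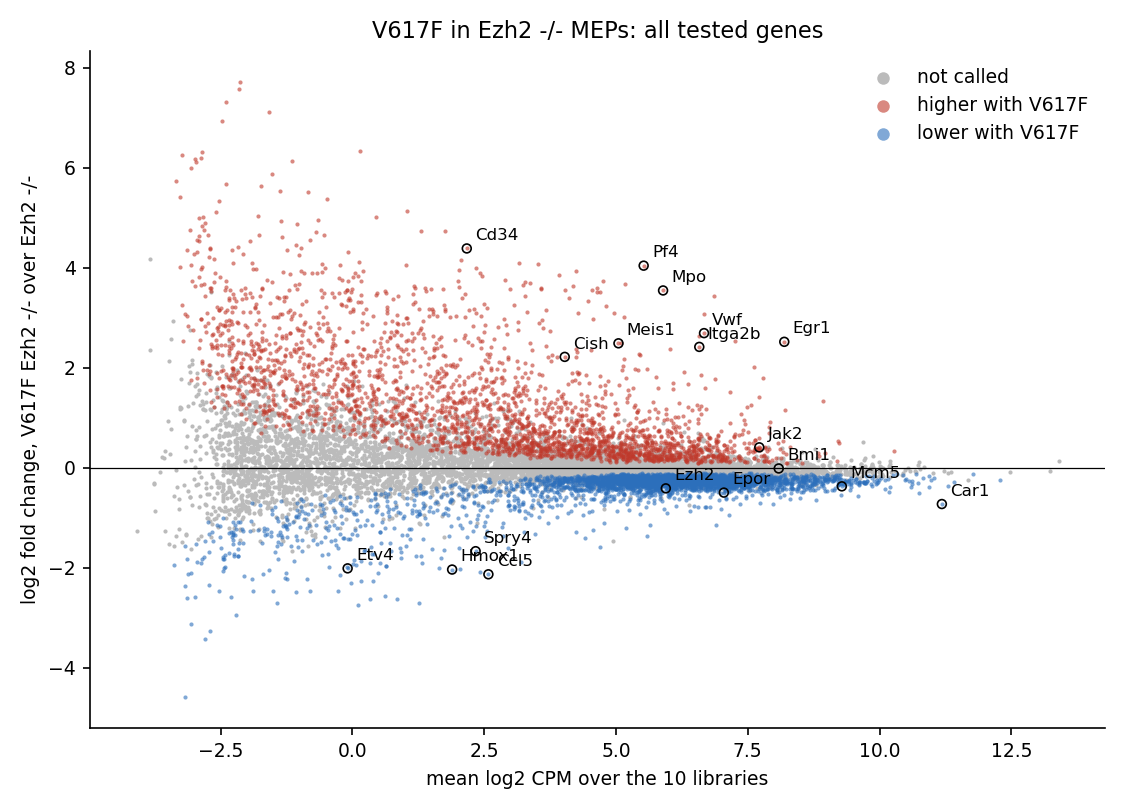
Log2 fold change of V617F Ezh2 -/- over Ezh2 -/- (y axis) against the mean log2 CPM of the 10 libraries (x axis), 1 point per tested gene, with called genes in colour and 18 genes circled and named. Pf4 lies in the upper arm at log2 4.04, while most called decreases of abundant genes lie close to the median of -0.29.

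The platelet chemokine gene Pf4, the STAT5 feedback gene Cish and the MAPK inhibitor gene Spry4 show the 3 kinds of change. Pf4, which encodes platelet factor 4 of the alpha granules, measured 108 to 199 CPM (median 163) in the 6 V617F Ezh2 -/- libraries, against 7.10, 9.46, 5.57 and 7.58 CPM in the 4 Ezh2 -/- libraries. Every V617F library lay above every library without V617F (log2 4.04 ± 0.57, adjusted p = 4.93e-05). Cish measured 23.7 to 41.2 CPM in V617F Ezh2 -/- (median 30.0) and 7.201, 6.70, 4.45 and 7.45 CPM in Ezh2 -/- (log2 2.22 ± 0.23, adjusted p = 1e-06); Ezh2 -/- replicate 3 was the lowest and the groups did not overlap. Spry4 was lower, at 2.74 to 3.50 CPM in V617F Ezh2 -/- (median 3.06) and 9.60, 9.64, 9.94 and 12.6 CPM in Ezh2 -/- (log2 -1.67 ± 0.17, adjusted p = 1e-06). Its highest library was the male Ezh2 -/- replicate 4, and among female libraries alone the fold change was -1.63 (adjusted p = 4.2e-05).

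**Figure D2:**
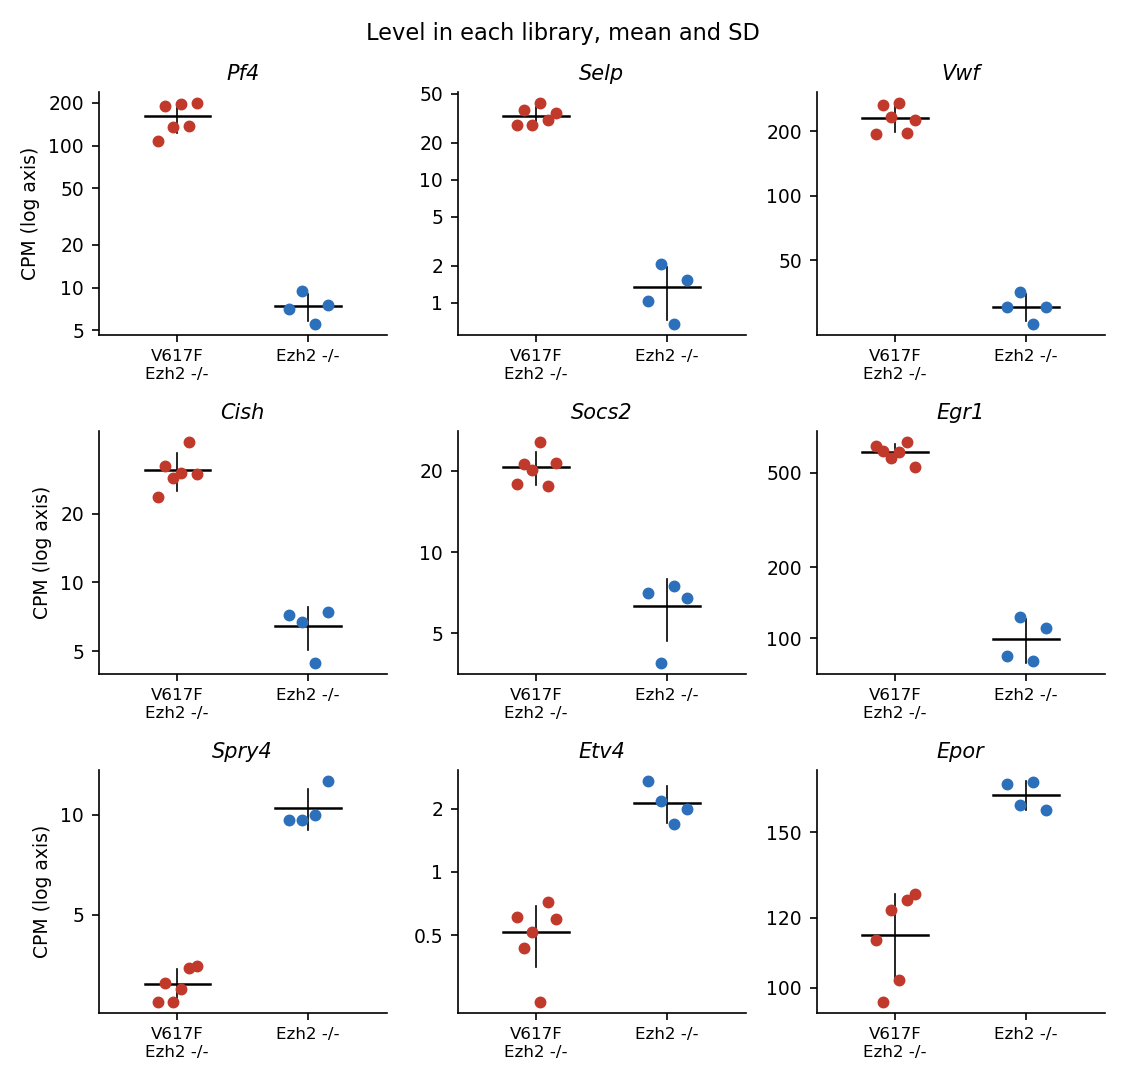
CPM of 9 genes in each library (points) on log axes, V617F Ezh2 -/- left and Ezh2 -/- right, with the mean (horizontal line) and SD (vertical line). The groups do not overlap for any of the 9: Pf4, Selp, Vwf, Cish, Socs2 and Egr1 are higher with V617F, and Spry4, Etv4 and Epor are lower.

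Feedback genes and other targets downstream of JAK2 and STAT5 were higher with V617F. In the list of JAK-STAT5 feedback and target genes, 9 of 17 tested members were higher and 0 lower, with a median log2 change of 0.98 against -0.03 over all genes; 1 was lower without V617F Ezh2 -/- replicate 5 or Ezh2 -/- replicate 2. Among the feedback inhibitors, 3 of 4 were higher: Cish, Socs2 (log2 1.59 ± 0.29) and Socs1 (log2 1.41 ± 0.38), while Socs3 did not pass (log2 0.98 ± 0.42, adjusted p = 0.0612). Socs2 measured 17.6 to 25.6 CPM in V617F Ezh2 -/- (median 20.7) and 7.08, 3.89, 7.47 and 6.77 CPM in Ezh2 -/-, without overlap. Of the secreted outputs, Erfe, the hormone by which erythroid cells lower hepcidin, measured 10.8 to 24.7 CPM in V617F Ezh2 -/- (median 13.97) and 5.59, 3.17, 5.91 and 5.20 CPM in Ezh2 -/- (log2 1.6 ± 0.25), and the cytokine Osm measured 15.7 to 21.2 CPM in V617F Ezh2 -/- (median 17.5) and 9.48, 7.73, 6.50 and 8.55 CPM in Ezh2 -/- (log2 1.16 ± 0.13, adjusted p = 2.35e-06). Every V617F library lay above every library without V617F for both genes.

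Survival and growth genes of the same list moved less evenly, with 4 of 10 higher. Id1, an inhibitor of helix-loop-helix factors, changed most (log2 2.38 ± 0.50), followed by Bcl2l1, which encodes the survival protein BCL-XL (log2 1.0 ± 0.22). Ccnd2, the cyclin D2 gene, measured 291 to 316 CPM in V617F Ezh2 -/- (median 302) and 176, 154, 157 and 198 CPM in Ezh2 -/- (log2 0.81 ± 0.08, adjusted p = 9.77e-07), and Myc was higher by 0.51 ± 0.11. The kinase genes Pim1 (log2 0.36 ± 0.18, adjusted p = 0.111) and Pim2 (0.11 ± 0.13, adjusted p = 0.508) did not pass.

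The promoter of Cish is printed because it held the STAT-type motif that was searched. In a window of 300 bases around the RefSeq start of Cish (GRCm38.p6, chr9:107296409-107296708, plus strand), TTCNNNGAA, which reads the same on both strands, occurred at positions 251 to 259 and 262 to 270. The sequence is shown in lower case, 5′ to 3′, with the matches in capitals, and comes from RefSeq.
Cish: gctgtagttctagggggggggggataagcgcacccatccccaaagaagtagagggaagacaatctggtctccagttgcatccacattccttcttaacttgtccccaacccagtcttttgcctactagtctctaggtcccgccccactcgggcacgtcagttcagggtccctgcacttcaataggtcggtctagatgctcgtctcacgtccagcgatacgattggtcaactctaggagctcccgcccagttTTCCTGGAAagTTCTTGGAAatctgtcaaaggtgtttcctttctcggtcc
Of all 32851 RefSeq promoter windows of this length, 8.3% held the motif and 0.457% held 2 or more. Of the 9 called genes of the list, 4 had a window, and those of Erfe, Socs1 and Bcl2l1 held no match. A match is a string of letters and not a measured binding site.

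The kinase and factor genes themselves changed by less. Of 11 tested Jak and Stat genes, 4 were higher (2 without Ezh2 -/- replicate 3) and 1 was lower. Stat4 (log2 1.46 ± 0.56), Jak3 (0.76 ± 0.20) and Stat3 (0.74 ± 0.23) were higher besides Jak2. Stat5a, the gene of a STAT5 protein, was lower by a small amount (-0.10 ± 0.04, adjusted p = 0.0432). Stat3 lost its call without Ezh2 -/- replicate 3 (adjusted p = 0.0689). Stat4 lost its call without V617F Ezh2 -/- replicates 2, 3 or 4 or Ezh2 -/- replicates 1, 2 or 3 or without a filter on low counts (adjusted p up to 0.154). Stat5a lost its call without V617F Ezh2 -/- replicates 2, 3, 4, 5 or 6 or Ezh2 -/- replicates 1, 2 or 3, with RLE scaling, in DESeq2, without a filter on low counts, with a filter at a mean of 1 CPM, among female libraries alone or in a fit of the compared groups alone (adjusted p up to 0.156).

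Of 24 tested cytokine receptor genes, 7 were higher and 5 lower, against 19.1% and 22.5% of all tested genes. Epor, the erythropoietin receptor gene, measured 96.4 to 128 CPM in V617F Ezh2 -/- (median 118) and 170.1, 161, 171 and 159 CPM in Ezh2 -/- and was lower (log2 -0.49 ± 0.12, adjusted p = 0.00283). The groups did not overlap for Epor. Higher members were the interleukin-6 receptor gene Il6ra (log2 3.18 ± 0.56), the shared beta chain Csf2rb (3.07 ± 0.79) and its relative Csf2rb2 (2.73 ± 0.71). Ghr, the growth hormone receptor gene, and Il18r1 were higher by 2.11 ± 0.55 and 2.16 ± 0.45. Il2rb, a chain of the interleukin-2 receptor on lymphoid cells, was lower (-1.89 ± 0.48), as were Il1rl1 (-0.62 ± 0.14), Il2rg (-0.35 ± 0.12) and Ifngr2 (-0.33 ± 0.08). In a fit of the compared groups alone, 11 receptor genes were higher. Il2rg lost its call without V617F Ezh2 -/- replicates 2, 3, 4 or 6 or Ezh2 -/- replicates 1 or 2, without a filter on low counts or among female libraries alone (adjusted p up to 0.121).

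Among feedback genes of the RAS-MAPK pathway, sprouty and dual-specificity phosphatase proteins damp ERK signalling, and ETS factors such as ETV4 and ETV5 are transcribed in response to it. Of 19 tested genes, 4 were higher (8 in a fit of the compared groups alone) and 5 lower, against 19.1% and 22.5% of all tested genes. The lower ones were Etv4, Spry4, Fosl1, Etv5 and Spry2. Etv4 measured 0.242 to 0.717 CPM in V617F Ezh2 -/- (median 0.560) and 2.71, 2.16, 1.68 and 1.998 CPM in Ezh2 -/- (log2 -2.01 ± 0.32), and Etv5 measured 8.17 to 10.04 CPM in V617F Ezh2 -/- (median 9.39) and 16.4, 17.4, 16.4 and 19.6 CPM in Ezh2 -/- (log2 -0.86 ± 0.14). Spry1, from the same family as Spry4 and Spry2, was higher at 14.8 to 20.97 CPM in V617F Ezh2 -/- (median 17.8) and 7.61, 6.33, 6.50 and 7.69 CPM in Ezh2 -/- (log2 1.29 ± 0.25), as were Spred3 (1.51 ± 0.42) and the phosphatase genes Dusp3 (2.14 ± 0.47) and Dusp2 (1.66 ± 0.32). Dusp6, a direct ERK phosphatase gene, did not pass (log2 0.22 ± 0.13, adjusted p = 0.175), nor did Spred1 (0.13 ± 0.06, adjusted p = 0.0955).

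Of 20 tested immediate early genes, which cells transcribe within minutes of a stimulus, 10 were higher and 0 lower, with a median log2 change of 0.61. The 10 became 5 without Ezh2 -/- replicates 1 or 3, and 1 was lower without V617F Ezh2 -/- replicates 5 or 6. Egr1 measured 527 to 674 CPM (median 615) in the 6 V617F Ezh2 -/- libraries, against 84.5, 123, 79.9 and 111 CPM in the 4 Ezh2 -/- libraries (log2 2.52 ± 0.33, adjusted p = 2.08e-05). Egr3 (log2 3.58 ± 0.54), Egr2 (2.0 ± 0.33), Nr4a1 (1.58 ± 0.50), Btg2 (1.30 ± 0.27) and Fos (1.26 ± 0.25) followed. Nr4a1 ranged from 87.0 to 238 CPM over the V617F Ezh2 -/- libraries. Atf3 did not pass (log2 -0.82 ± 0.36, adjusted p = 0.0663). The summed level of the list was 2806 to 3972 CPM in V617F Ezh2 -/- and 1622 to 2012 CPM in Ezh2 -/-. Nr4a1 lost its call without Ezh2 -/- replicates 1 or 3 (adjusted p up to 0.0754).

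Genes of megakaryocytes and platelets rose, many of them by a log2 of more than 2. Of 17 tested platelet adhesion receptor genes, 14 were higher and 0 lower (median log2 1.82); of 22 granule genes, 19 and 0 (2.74); of 19 platelet signalling genes, 17 and 0 (2.86); and of 12 cytoskeletal genes, 5 and 1 (0.27), with 8 higher in a fit of the compared groups alone. These counts stand against a background of 19.1% higher and 22.5% lower. In the adhesion list, Itga2b, which encodes CD41, measured 174 to 249 CPM (median 202) in the 6 V617F Ezh2 -/- libraries, against 31.6, 38.8, 23.8 and 29.4 CPM in the 4 Ezh2 -/- libraries (log2 2.42 ± 0.47), and its partner Itgb3 measured 54.9 to 105 CPM in V617F Ezh2 -/- (median 74.5) and 3.84, 5.52, 3.39 and 6.92 CPM in Ezh2 -/- (log2 3.60 ± 0.61). The von Willebrand receptor chain Gp1bb measured 10.03 to 17.7 CPM in V617F Ezh2 -/- (median 11.2) and 1.18, 0.886, 1.03 and 1.12 CPM in Ezh2 -/- (log2 3.15 ± 0.50). Its other chains changed less: Gp9 by 2.19 ± 0.43, Gp1ba by 0.63 ± 0.21 and Gp5 by 0.41 ± 0.15. The junction genes Esam (3.89 ± 0.65) and F11r (3.60 ± 0.64) were among the largest increases of the list. Gp1ba lost its call without Ezh2 -/- replicates 1, 3 or 4 or among female libraries alone (adjusted p up to 0.072). Gp5 lost its call without V617F Ezh2 -/- replicates 2 or 4 or Ezh2 -/- replicates 1, 3 or 4 or among female libraries alone (adjusted p up to 0.0968).

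All 16 tested alpha-granule cargo genes were higher, with a median log2 change of 2.95, against 3 of 6 biogenesis genes (median 0.48). Vwf, the von Willebrand factor gene, measured 194 to 272 CPM (median 231) in the 6 V617F Ezh2 -/- libraries, against 30.3, 35.5, 25.2 and 30.1 CPM in the 4 Ezh2 -/- libraries (log2 2.69 ± 0.45). Selp, which encodes P-selectin, measured 27.7 to 42.0 CPM in V617F Ezh2 -/- (median 32.5) and 1.04, 2.08, 0.677 and 1.55 CPM in Ezh2 -/- (log2 4.11 ± 0.69). Clu (4.16 ± 0.64), Ppbp (3.93 ± 0.61), Mmrn1 (3.52 ± 0.65) and Thbs1 (3.11 ± 0.49) also rose, and Tgfb1, the profibrotic growth factor that alpha granules carry, rose by 0.40 ± 0.12 to 255 ± 29.8 CPM, against 193 ± 15. CPM in Ezh2 -/-. Of the biogenesis genes, Slc35d3 (3.64 ± 0.48), Rab27b (2.17 ± 0.39) and Nbeal2 (0.92 ± 0.29) were higher, and Vps33b (0.03 ± 0.08, adjusted p = 0.761) and Hps1 (-0.05 ± 0.05, adjusted p = 0.478) did not pass. Nbeal2 lost its call without Ezh2 -/- replicate 3 (adjusted p = 0.0724).

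The promoter of Pf4 is shown because it held the GATA-type motif searched, AGATAA. In the 300-base RefSeq window (GRCm38.p6, chr5:90772185-90772484, plus strand), searched on both strands, the motif occurred at positions 287 to 292, in capitals.
Pf4: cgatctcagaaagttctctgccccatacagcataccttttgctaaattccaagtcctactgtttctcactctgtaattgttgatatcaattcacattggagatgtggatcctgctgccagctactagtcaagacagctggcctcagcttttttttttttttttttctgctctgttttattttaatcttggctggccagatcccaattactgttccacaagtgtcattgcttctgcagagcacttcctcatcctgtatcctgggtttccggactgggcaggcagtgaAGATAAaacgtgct
The motif was present on either strand in 11.18% of all 32851 windows. The window of Selp, the other gene that the rule selected, held no match, and 13 of the 19 called granule genes had a window.

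In the signalling list, all 10 genes of the thrombin, purine and eicosanoid pathways were higher (median log2 3.17). Tbxas1, the thromboxane synthase gene, changed by 4.07 ± 0.60, Ptgs1, which encodes cyclooxygenase-1, by 3.16 ± 0.53, the purine receptor gene P2rx1 by 3.27 ± 0.56 and the thrombin receptor genes F2rl2 and F2r by 3.58 ± 0.53 and 1.79 ± 0.28. Plek, which encodes the protein kinase C substrate pleckstrin, measured 261 to 423 CPM (median 334) in the 6 V617F Ezh2 -/- libraries, against 19.5, 29.1, 19.8 and 27.7 CPM in the 4 Ezh2 -/- libraries (log2 3.44 ± 0.54). The abundant integrin activators Tln1 (0.15 ± 0.11, adjusted p = 0.265) and Fermt3 (0.19 ± 0.10, adjusted p = 0.134) did not pass. In the cytoskeletal list, Mylk (3.64 ± 0.63), Tuba8 (1.88 ± 0.38), the platelet tubulin gene Tubb1 (1.62 ± 0.43) and Zyx (1.6 ± 0.32) were higher, Pdlim1 was lower (-0.28 ± 0.06), and Myh9 did not pass (0.21 ± 0.09, adjusted p = 0.059).

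Of 22 tested transcription factor genes of the lineage, 9 were higher and 4 lower, against 19.1% and 22.5% of all tested genes. The 4 became 0 without V617F Ezh2 -/- replicate 2 or Ezh2 -/- replicates 1 or 3, 1 without V617F Ezh2 -/- replicates 1, 3 or 4 or Ezh2 -/- replicate 2, with RLE scaling or without a filter on low counts and 2 among female libraries alone. Meis1, a homeobox factor of stem cells and megakaryocytes, measured 56.0 to 93.9 CPM in V617F Ezh2 -/- (median 66.3) and 8.99, 15.8, 8.37 and 10.1 CPM in Ezh2 -/- (log2 2.49 ± 0.43). Fli1, an ETS factor of megakaryocytes, was higher by 1.97 ± 0.38, Erg by 1.91 ± 0.38, Mef2c by 1.79 ± 0.33, Gata2 by 1.21 ± 0.25, Runx1 by 0.97 ± 0.17 and Nfe2 by 0.63 ± 0.13. Spi1, the myeloid factor PU.1, was higher by 1.98 ± 0.40. The erythroid factor Klf1 was lower (-0.41 ± 0.17, adjusted p = 0.0499). So were Gata1 (-0.28 ± 0.09), which serves both lineages, Gfi1b (-0.36 ± 0.14) and Ikzf1 (-0.23 ± 0.09), and none of these 4 calls held throughout. Klf1 lost its call without V617F Ezh2 -/- replicates 1, 2, 3 or 4 or Ezh2 -/- replicates 1, 2 or 3, with RLE scaling, without a filter on low counts, with a filter at a mean of 1 CPM or among female libraries alone (adjusted p up to 0.167). Gata1 lost its call without V617F Ezh2 -/- replicate 2 or Ezh2 -/- replicates 1 or 3 (adjusted p up to 0.0711). Gfi1b lost its call without V617F Ezh2 -/- replicates 1, 2, 3 or 4 or Ezh2 -/- replicates 1, 2 or 3, with RLE scaling or without a filter on low counts (adjusted p up to 0.161). Ikzf1 lost its call without V617F Ezh2 -/- replicates 1, 2, 3 or 4 or Ezh2 -/- replicates 1, 2 or 3, with RLE scaling, without a filter on low counts or among female libraries alone (adjusted p up to 0.105). Zfpm1 (0.07 ± 0.09, adjusted p = 0.536), which encodes a GATA1 partner, and Myb (-0.05 ± 0.08, adjusted p = 0.596) did not pass.

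**Figure D3:**
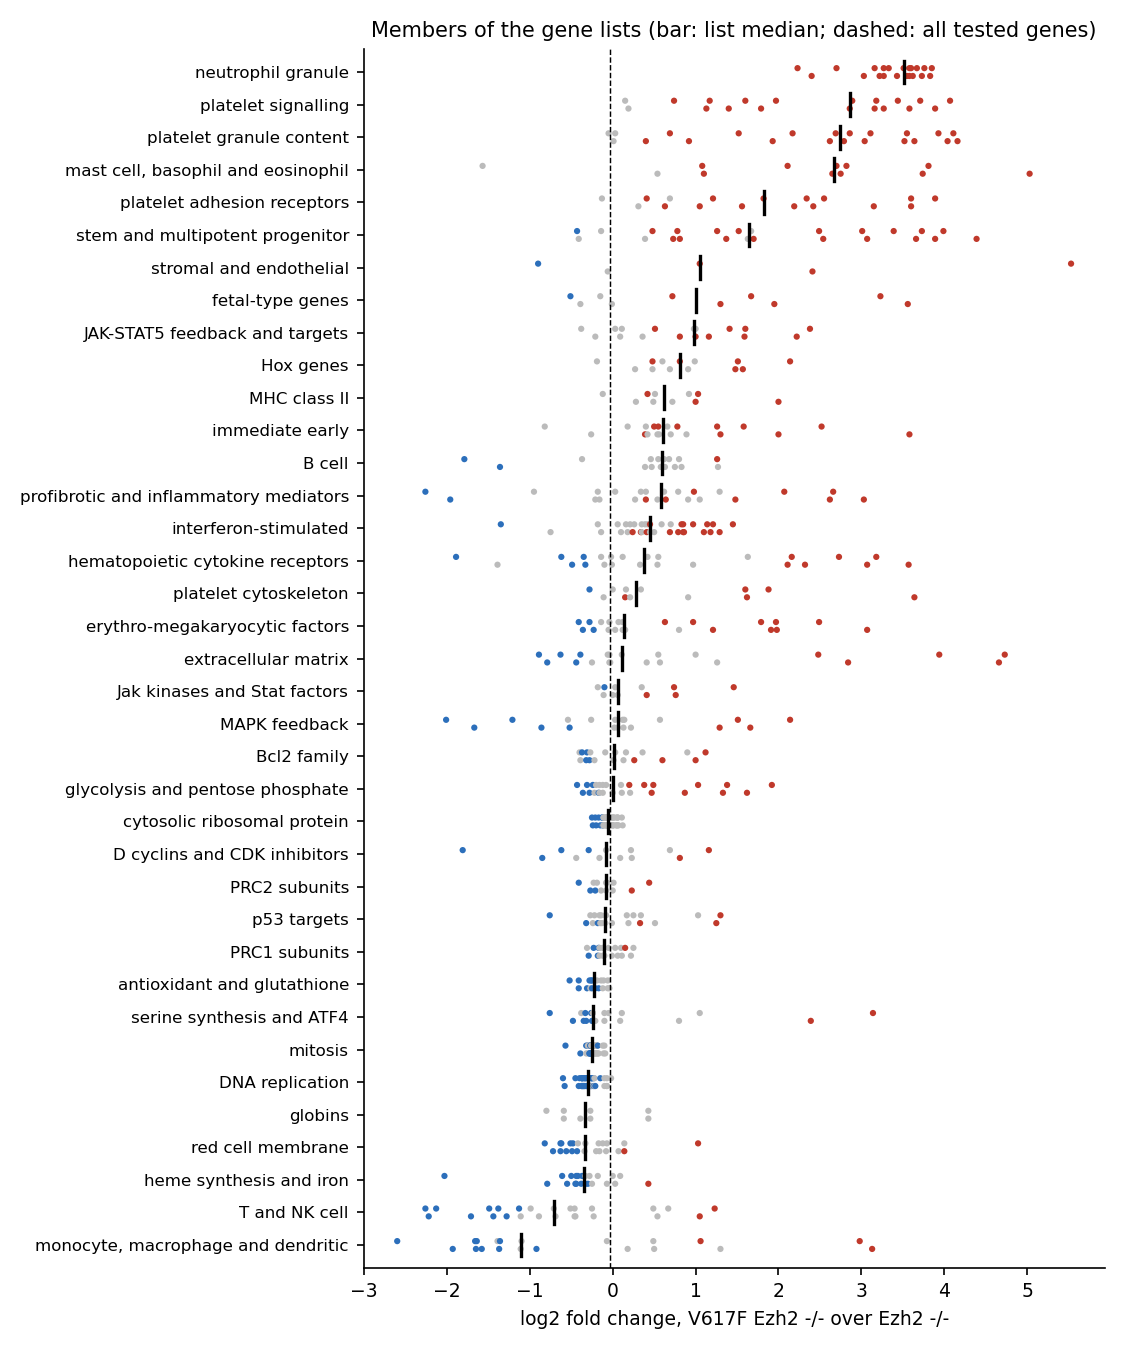
Log2 fold changes of the tested members of 37 gene lists, 1 point per gene (red higher, blue lower, grey not called), with the list median as a bar and the median of all tested genes, -0.03, as a dashed line. Lists are ordered by median, from 3.51 for neutrophil granule genes to -1.10 for monocyte, macrophage and dendritic markers.

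Of 22 tested genes of heme synthesis and iron handling, 1 was higher and 13 lower (median log2 -0.35), and of 23 red cell membrane genes, 2 and 10 (-0.34). Without Ezh2 -/- replicate 3 the lower genes numbered 8 and 5. With all libraries, 19.1% of all tested genes were higher and 22.5% lower. Among heme enzymes, Alad measured 153 to 223 CPM in V617F Ezh2 -/- (median 194) and 266, 266, 294 and 248 CPM in Ezh2 -/- (log2 -0.50 ± 0.10), and Urod (-0.38 ± 0.08) and Ppox (-0.55 ± 0.13) were lower as well. Alas1, the housekeeping form of the first enzyme, was higher (0.43 ± 0.12), and the erythroid form Alas2 did not pass (-0.33 ± 0.31, adjusted p = 0.4). The iron exporter gene Slc40a1 (-0.79 ± 0.13) and the mitochondrial glycine carrier gene Slc25a38 (-0.61 ± 0.13) were lower. Hmox1, whose product degrades heme, had the largest decrease of the list, at 0.567 to 5.03 CPM in V617F Ezh2 -/- (median 2.43) and 10.8, 10.9, 7.45 and 8.27 CPM in Ezh2 -/- (log2 -2.03 ± 0.57).

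In the red cell membrane list, Car1, the carbonic anhydrase gene of early erythroid cells, measured 1648 to 2341 CPM (median 1798) in the 6 V617F Ezh2 -/- libraries, against 2768, 3074, 2950.0 and 4306 CPM in the 4 Ezh2 -/- libraries (log2 -0.72 ± 0.17). The blood group genes Rhd (-0.63 ± 0.18), Kel (-0.62 ± 0.15) and Ermap (-0.56 ± 0.15) were lower. The groups did not overlap for Car1. The water channel gene Aqp1 was lower too (-0.49 ± 0.10), and the 2 higher members were the glycophorin C gene Gypc (0.14 ± 0.05) and the glucose transporter gene Slc2a1 (1.03 ± 0.39). The 2 became 0 without Ezh2 -/- replicates 1 or 2 and 1 without V617F Ezh2 -/- replicates 1, 4 or 5 or Ezh2 -/- replicates 3 or 4. Rhd lost its call without Ezh2 -/- replicate 3 (adjusted p = 0.054). Slc2a1 lost its call without V617F Ezh2 -/- replicates 2 or 4 or Ezh2 -/- replicates 1, 2 or 3 (adjusted p up to 0.138). Gypc lost its call without V617F Ezh2 -/- replicates 1 or 5 or Ezh2 -/- replicates 1, 2 or 4 (adjusted p up to 0.0835). None of 8 tested globin genes passed in edgeR or in DESeq2, and 0 had an unadjusted p under 0.05 (median log2 -0.33), although 2 were lower in a fit of the compared groups alone. Their summed level was 158 to 290.1 CPM in V617F Ezh2 -/- and 162 to 275 CPM in Ezh2 -/-, and Hba-a1 and Hba-a2, like Hbb-b2 and Hbb-bt, held identical counts in every library.

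Of 41 tested DNA replication genes, 0 were higher and 32 lower (median log2 -0.30), and of 34 mitosis genes, 0 and 13 (-0.26). Over all tested genes, 19.1% were higher and 22.5% lower. The 32 replication genes became 21 without Ezh2 -/- replicate 3, and the 13 mitosis genes 2 without Ezh2 -/- replicate 3, 4 without V617F Ezh2 -/- replicate 4, 5 without V617F Ezh2 -/- replicate 2 or Ezh2 -/- replicate 1, 6 among female libraries alone, 8 without V617F Ezh2 -/- replicates 1 or 3 and 22 in a fit of the compared groups alone. The helicase gene Mcm5 measured 502 to 606 CPM (median 571) in the 6 V617F Ezh2 -/- libraries, against 738, 698, 789 and 718 CPM in the 4 Ezh2 -/- libraries (log2 -0.37 ± 0.08). Ccne1, the cyclin E1 gene, measured 90.6 to 143 CPM in V617F Ezh2 -/- (median 115) and 183, 157, 206 and 171 CPM in Ezh2 -/- (log2 -0.60 ± 0.17), and Cdt1, the licensing factor gene, changed by -0.45 ± 0.11. Of the mitosis genes, Cenpa, the centromeric histone, changed by -0.57 ± 0.12, the survivin gene Birc5 by -0.39 ± 0.11 and the cyclin gene Ccnb2 by -0.30 ± 0.09. Cdk1 did not pass (-0.22 ± 0.11, adjusted p = 0.115). The G1 cyclins parted, since Ccnd1 was lower (-0.85 ± 0.32) while Ccnd2 was higher and Ccnd3 did not pass (0.09 ± 0.07, adjusted p = 0.31). Cdk4 (-0.29 ± 0.08) and the inhibitor gene Cdkn2c (-0.62 ± 0.10) were lower, and Cdkn2d was higher (1.16 ± 0.32). Ccne1, Cdk4, Birc5 and Ccnb2 lost their calls without Ezh2 -/- replicate 3 (adjusted p = 0.0533, 0.0507, 0.052 and 0.0518). Ccnd1 lost its call without V617F Ezh2 -/- replicates 1, 2, 3, 4 or 6 or Ezh2 -/- replicates 1, 2, 3 or 4, without a filter on low counts or among female libraries alone (adjusted p up to 0.0981).

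The inhibitor locus Cdkn2a, a classical PRC2 target, measured 1.35 to 3.75 CPM (median 1.75) in the 6 V617F Ezh2 -/- libraries, against 8.08, 5.71, 8.33 and 4.08 CPM in the 4 Ezh2 -/- libraries and was lower with V617F (log2 -1.81 ± 0.57, adjusted p = 0.0147), while Cdkn1a (-0.16 ± 0.32, adjusted p = 0.7) did not pass. Cdkn2a lost its call without Ezh2 -/- replicate 3 or in DESeq2 (adjusted p up to 0.06). Of 10 tested fetal-type genes, 6 were higher and 1 lower (median log2 1.01). Lin28b, whose RNA-binding product marks fetal blood cells, measured 22.7 to 39.5 CPM in V617F Ezh2 -/- (median 28.6) and 14.3, 8.51, 13.3 and 19.8 CPM in Ezh2 -/- (log2 1.30 ± 0.23), without overlap. Igf2bp2 rose by 1.67 ± 0.34 and Plagl1 by 3.23 ± 0.58, and the imprinted gene Peg10 was the 1 lower member (-0.51 ± 0.20). Peg10 lost its call without V617F Ezh2 -/- replicates 1, 2, 3, 4 or 5 or Ezh2 -/- replicates 1, 3 or 4, with RLE scaling, without a filter on low counts, with a filter at a mean of 1 CPM, without the sex term, among female libraries alone or in a fit of the compared groups alone (adjusted p up to 0.326). Of 13 Hox genes, 6 were higher and 0 lower, among them all 4 tested HoxB genes (Hoxb5 2.14 ± 0.60, Hoxb3 1.57 ± 0.38, Hoxb2 1.48 ± 0.38 and Hoxb4 0.81 ± 0.27) and, of 9 HoxA genes, Hoxa10 (1.51 ± 0.32) and Hoxa9 (0.48 ± 0.14). In a fit of the compared groups alone, 10 Hox genes were higher. Hoxb4 lost its call without Ezh2 -/- replicates 1 or 3 (adjusted p up to 0.0853).

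Polycomb subunit genes themselves changed by small amounts, and their counts stand against 19.1% higher and 22.5% lower over all tested genes. Of 13 PRC2 genes, 2 were higher and 3 lower: Jarid2 (0.44 ± 0.08) and Ezh1 (0.23 ± 0.09), the paralog that can replace Ezh2 in the complex, were higher, and Ezh2, Eed (-0.21 ± 0.08) and Rbbp7 (-0.27 ± 0.08) were lower. Suz12 did not pass (-0.14 ± 0.08, adjusted p = 0.142). Of 19 PRC1 genes, 1 was higher and 4 lower, with Cbx2 (-0.29 ± 0.08) and Kdm2b (-0.23 ± 0.06) among these. The 2 higher PRC2 genes became 1 without V617F Ezh2 -/- replicates 1, 2 or 4 or Ezh2 -/- replicates 1, 3 or 4 or among female libraries alone, and the 1 higher PRC1 gene 2 without Ezh2 -/- replicate 4, in DESeq2 or among female libraries alone and 4 in a fit of the compared groups alone. Ezh1 lost its call without V617F Ezh2 -/- replicates 1, 2 or 4 or Ezh2 -/- replicates 1, 3 or 4 or among female libraries alone (adjusted p up to 0.134). Eed lost its call without V617F Ezh2 -/- replicates 1, 2, 3, 4 or 5 or Ezh2 -/- replicates 1, 3 or 4, with RLE scaling, in DESeq2, without a filter on low counts, with a filter at a mean of 1 CPM or among female libraries alone (adjusted p up to 0.197). The 4 lower PRC1 genes became 2 without V617F Ezh2 -/- replicates 2, 3 or 4 or Ezh2 -/- replicate 3, with RLE scaling, in DESeq2, without a filter on low counts or with a filter at a mean of 1 CPM.

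Markers of other blood cells moved with the comparison, and most strongly those of neutrophils. All 21 tested neutrophil granule genes were higher (median log2 3.51), and their summed level was 147 to 1458 CPM in V617F Ezh2 -/-, against 24.9 to 98.5 CPM in Ezh2 -/-. Mpo, the myeloperoxidase gene of promyelocytes, measured 31.6 to 369 CPM (median 268) in the 6 V617F Ezh2 -/- libraries, against 21.1, 16.1, 5.05 and 12.4 CPM in the 4 Ezh2 -/- libraries (log2 3.55 ± 1.02), and S100a8, a calgranulin gene, measured 17.5 to 166 CPM in V617F Ezh2 -/- (median 98.4) and 11., 7.31, 2.14 and 4.96 CPM in Ezh2 -/- (log2 3.73 ± 0.57). V617F Ezh2 -/- replicate 6 held the lowest level of the group and replicates 2, 3 and 4 the highest. None of the 21 genes was at 0 in a whole group.

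The platelet lists varied less between the same libraries. Relative to the mean of the Ezh2 -/- libraries, the mean log2 CPM of the neutrophil list was higher by 1.34 in V617F Ezh2 -/- replicate 6 and by 4.3 in replicate 2, whereas that of the platelet granule list was higher by 2.42 and 2.69 in the same libraries. Replicates 2, 3 and 4 were also the highest of the group for the platelet granule list, at 2.69, 2.45 and 2.76. The map of list levels by library shows this contrast. The part of neutrophil RNA in the rest of the results was not tested.

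**Figure D4:**
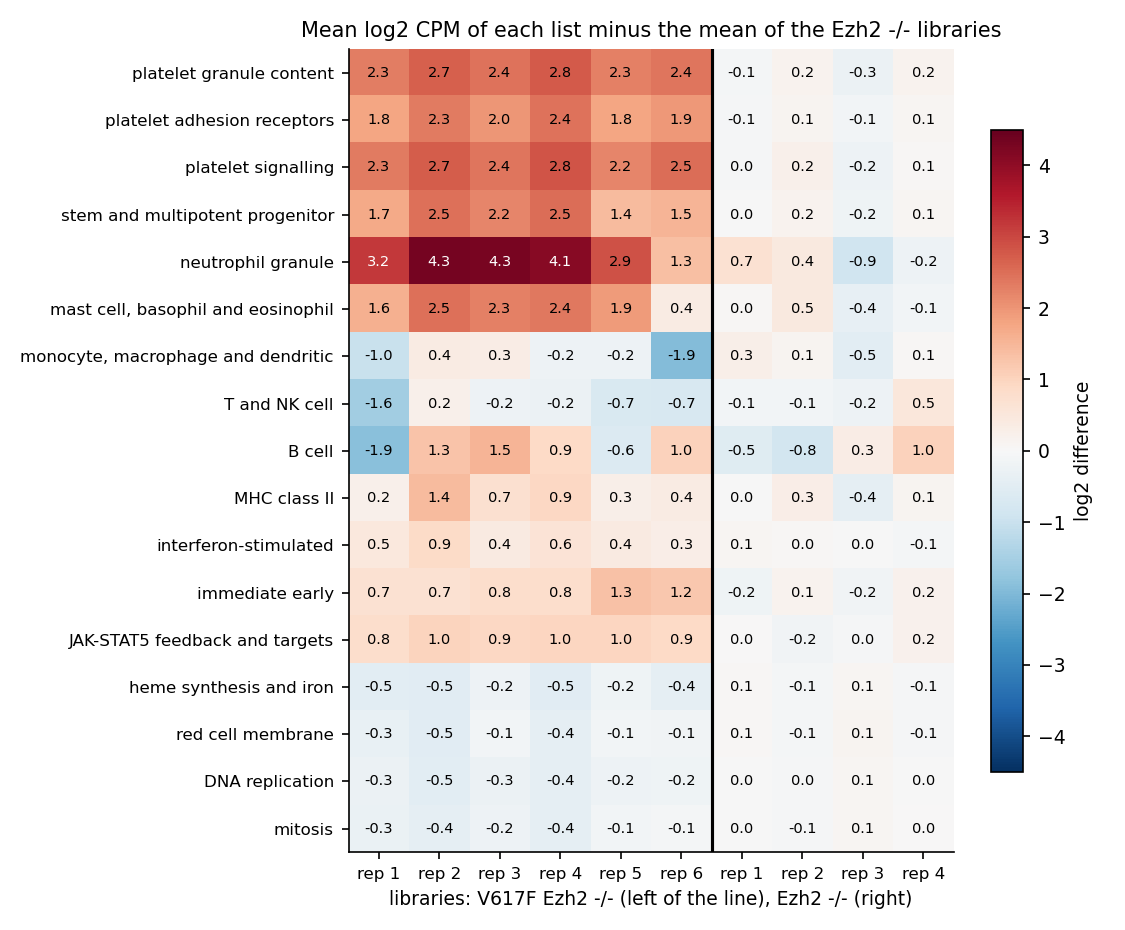
Mean log2 CPM of 17 gene lists in each library minus the mean of the 4 Ezh2 -/- libraries, with V617F Ezh2 -/- replicates left of the line and Ezh2 -/- replicates right of it. The neutrophil list varies between 1.34 and 4.3 over the V617F libraries, and the platelet lists stay between 1.77 and 2.83.

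Other marker lists were mixed. Of 12 mast cell, basophil and eosinophil genes, 10 were higher and 0 lower (median log2 2.68), with the eosinophil granule genes Prg2 (2.75 ± 0.63) and Epx (2.70 ± 0.80) and the histamine-forming enzyme Hdc (2.11 ± 0.62); the list summed to 11.3 to 59.3 CPM in V617F Ezh2 -/- and 5.60 to 13.5 CPM in Ezh2 -/-, and 5 of its genes were higher with a filter at a mean of 1 CPM. Of 20 monocyte, macrophage and dendritic markers, 3 were higher and 9 lower. The higher ones were Ly6c2 (3.13 ± 0.73), Lyz2 (2.98 ± 0.42) and Cx3cr1 (1.06 ± 0.30), and the lower ones included the macrophage genes C1qa (-1.93 ± 0.60) and Mrc1 (-1.66 ± 0.58). The 9 became 3 without V617F Ezh2 -/- replicate 4 or Ezh2 -/- replicate 4, among female libraries alone or in a fit of the compared groups alone, 4 without Ezh2 -/- replicate 1 and 5 without V617F Ezh2 -/- replicates 1 or 6 or without the sex term. Hdc lost its call without Ezh2 -/- replicate 3 (adjusted p = 0.054). C1qa lost its call among female libraries alone (adjusted p = 0.0533). Mrc1 lost its call without V617F Ezh2 -/- replicate 4 or Ezh2 -/- replicates 1 or 4, among female libraries alone or in a fit of the compared groups alone (adjusted p up to 0.0775). The list summed to 59.9 to 173 CPM in V617F Ezh2 -/- and 51.7 to 84.7 CPM in Ezh2 -/-, and no member was at 0 in a whole group.

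Lymphoid markers were low in both groups. Of 25 T and NK cell genes, 2 were higher (1 without Ezh2 -/- replicate 3) and 9 lower, including Ccl5 (-2.13 ± 0.54), Cd2 (-2.22 ± 0.56) and Eomes (-2.26 ± 0.54). The list summed to 102 to 149 CPM in V617F Ezh2 -/- and 75.0 to 121 CPM in Ezh2 -/-, with the adaptor gene Lat (38.7 ± 4.35 CPM in V617F Ezh2 -/- and 15.2 ± 1.29 CPM in Ezh2 -/-) and the granule gene Nkg7 (44.3 ± 9.03 CPM in V617F Ezh2 -/- and 19.8 ± 3.81 CPM in Ezh2 -/-) both higher. The 9 lower genes became 3 among female libraries alone or in a fit of the compared groups alone, 4 without Ezh2 -/- replicate 4 or with a filter at a mean of 1 CPM and 5 without the sex term. Nkg7 lost its call without Ezh2 -/- replicate 3 (adjusted p = 0.0511). Of 16 B cell genes, 1 was higher (Cd79b, 1.26 ± 0.48) and 2 lower. The 1 higher became 0 without V617F Ezh2 -/- replicates 2, 3 or 4 or Ezh2 -/- replicates 1, 2 or 3 or without a filter on low counts, 3 without Ezh2 -/- replicate 4 and 4 among female libraries alone, and the 2 lower 0 without V617F Ezh2 -/- replicates 1, 4, 5 or 6 or Ezh2 -/- replicates 2 or 4, with a filter at a mean of 1 CPM, among female libraries alone or in a fit of the compared groups alone and 1 without Ezh2 -/- replicates 1 or 3 or without a filter on low counts. The list summed to 9.62 to 96.3 CPM in V617F Ezh2 -/- and 11.99 to 57.3 CPM in Ezh2 -/-. Cd79b lost its call without V617F Ezh2 -/- replicates 2, 3 or 4 or Ezh2 -/- replicates 1, 2 or 3 or without a filter on low counts (adjusted p up to 0.157). V617F Ezh2 -/- replicate 1 held the lowest T and NK and B cell levels of the 10 libraries by the mean log2 CPM of the list. Of 5 tested stromal and endothelial genes, 3 were higher and 1 lower, among them Kdr (2.41 ± 0.49) and Plvap (-0.90 ± 0.15). The part of these cells in the results was not tested.

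Stem and multipotent progenitor genes rose, with 18 of 24 tested members higher and 1 lower (median log2 1.65). Cd34, an antigen of early progenitors, had the largest fold change among non-overlapping genes whose mean log2 CPM reached 2, at 10.5 to 30.4 CPM (median 16.2) in the 6 V617F Ezh2 -/- libraries, against 0.570, 0.721, 0.385 and 0.644 CPM in the 4 Ezh2 -/- libraries (log2 4.39 ± 1.07). Mycn measured 24.2 to 73.8 CPM in V617F Ezh2 -/- (median 48.1) and 3.52, 5.23, 2.98 and 3.91 CPM in Ezh2 -/- (log2 3.39 ± 0.55). Mecom (3.01 ± 0.59), Hlf (2.54 ± 0.64), Procr (3.07 ± 0.84), Tie1 (3.66 ± 0.65) and Tek (1.70 ± 0.45) were higher, Mllt3 was lower (-0.43 ± 0.08), and Kit did not pass (-0.14 ± 0.09, adjusted p = 0.218). Esam, Meis1 and Angpt1 are also members of the platelet or factor lists.

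Of 35 tested interferon-stimulated genes, 17 were higher and 1 lower (median log2 0.45), but this count depended on single libraries. It became 5 without Ezh2 -/- replicate 3, 6 without V617F Ezh2 -/- replicate 2, 7 without Ezh2 -/- replicate 1, 9 without Ezh2 -/- replicate 2 and 10 without V617F Ezh2 -/- replicate 4. Oas2 measured 6.65 to 20.1 CPM in V617F Ezh2 -/- (median 10.7) and 5.41, 4.12, 3.30 and 2.75 CPM in Ezh2 -/- (log2 1.45 ± 0.48), and Ifit1 (1.29 ± 0.37), Mx2 (1.18 ± 0.31) and the guanylate-binding gene Gbp7 (0.45 ± 0.12) were also higher. The chemokine gene Cxcl10 was lower (-1.35 ± 0.32), and Irf7 did not pass (0.45 ± 0.26, adjusted p = 0.155). Of 10 MHC class II genes, 4 were higher (2 without Ezh2 -/- replicate 3): H2-Ob (2.0 ± 0.41), H2-DMb1 (1.03 ± 0.29), H2-Oa (1.0 ± 0.31) and H2-DMa (0.42 ± 0.17). The antigen-presenting chain H2-Aa did not pass (0.51 ± 0.51, adjusted p = 0.419). Oas2 and H2-Oa lost their calls without Ezh2 -/- replicate 3 (adjusted p = 0.072 and 0.064). H2-DMa lost its call without V617F Ezh2 -/- replicates 1, 2 or 4 or Ezh2 -/- replicates 1, 2 or 3, without a filter on low counts or among female libraries alone (adjusted p up to 0.149).

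Profibrotic and inflammatory mediators, 9 growth factors and 15 cytokines, were mixed. Of these 24 tested genes, 8 were higher and 2 lower, against 19.1% and 22.5% of all tested genes. Il12a measured 5.57 to 9.90 CPM in V617F Ezh2 -/- (median 7.37) and 0.712, 0.907, 0.696 and 0.687 CPM in Ezh2 -/- (log2 3.03 ± 0.44), Tnfsf14 rose by 2.66 ± 0.67, the platelet-derived growth factor gene Pdgfb by 2.62 ± 0.57 and Il1b by 1.48 ± 0.44, besides Tgfb1 and Vegfa (0.64 ± 0.09). The chemokine genes Ccl3 (-2.26 ± 0.56) and Ccl4 (-1.96 ± 0.56) were lower. Il1b lost its call without Ezh2 -/- replicates 1 or 3 (adjusted p up to 0.0673). Ccl4 lost its call among female libraries alone (adjusted p = 0.0515). Of 21 matrix genes, 5 were higher (10 in a fit of the compared groups alone) and 5 lower (3 without Ezh2 -/- replicate 3). These counts too stand against 19.1% and 22.5%. Timp3, an inhibitor of matrix proteases, measured 43.1 to 94.2 CPM (median 62.5) in the 6 V617F Ezh2 -/- libraries, against 3.11, 4.08, 1.96 and 3.80 CPM in the 4 Ezh2 -/- libraries (log2 3.94 ± 0.58), and the basement membrane collagen genes Col4a1 (4.73 ± 0.81) and Col4a2 (2.84 ± 0.57) were higher. Col5a1 (-0.79 ± 0.25), Mmp14 (-0.63 ± 0.15) and the proteoglycan gene Sdc1 (-0.89 ± 0.17) were lower. Col5a1 lost its call without Ezh2 -/- replicate 3 (adjusted p = 0.054).

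Of 19 genes of the Bcl2 family, which sets cell survival, 4 were higher and 4 lower, near the 19.1% and 22.5% of all tested genes. The 4 higher became 2 without Ezh2 -/- replicates 1 or 3, and the 4 lower 2 without Ezh2 -/- replicate 3. Among anti-apoptotic members, Bcl2 (1.12 ± 0.34), Bcl2l1 and Bcl2l2 (0.26 ± 0.08) were higher, and the pro-apoptotic genes Bcl2l11, which encodes BIM (-0.37 ± 0.11), Bax (-0.32 ± 0.09), Bid (-0.31 ± 0.08) and Bak1 (-0.28 ± 0.09) were lower; the pro-apoptotic Bnip3 was higher (0.60 ± 0.17). Bcl2 and Bcl2l2 lost their calls without Ezh2 -/- replicates 1 or 3 (adjusted p up to 0.0661 and 0.0742). Bcl2l11 lost its call without Ezh2 -/- replicate 1 (adjusted p = 0.0578). Bax and Bak1 lost their calls without Ezh2 -/- replicate 3 (adjusted p = 0.0504 and 0.0992). Of 23 p53 target genes, 3 were higher (5 in a fit of the compared groups alone) and 3 lower (1 without Ezh2 -/- replicate 3), and Mdm2 did not pass (-0.09 ± 0.06, adjusted p = 0.204).

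Of 21 glycolysis genes, 10 were higher and 2 lower, and of 6 pentose phosphate genes, 0 and 4. Pkm, the pyruvate kinase gene, measured 91.7 to 198 CPM (median 144) in the 6 V617F Ezh2 -/- libraries, against 27.1, 35.6, 25.96 and 36.9 CPM in the 4 Ezh2 -/- libraries (log2 1.92 ± 0.45), and the lactate exporter gene Slc16a3 (1.33 ± 0.18) and Pfkfb3 (0.87 ± 0.18) were higher, while the pentose phosphate genes Taldo1 (-0.43 ± 0.09) and G6pdx (-0.28 ± 0.09) were lower. The 6 lower genes of both kinds became 1 without V617F Ezh2 -/- replicates 2 or 4 or Ezh2 -/- replicates 1 or 3. G6pdx lost its call without V617F Ezh2 -/- replicates 2 or 4 or Ezh2 -/- replicates 1, 2 or 3 (adjusted p up to 0.0674). Of 21 serine synthesis and ATF4 genes, 2 were higher and 8 lower, with Asns (-0.48 ± 0.15) and Phgdh (-0.35 ± 0.08) among the lower. The 8 became 3 without Ezh2 -/- replicate 3 and 5 without V617F Ezh2 -/- replicates 2 or 4 or among female libraries alone. Of 18 antioxidant genes, 0 were higher and 10 lower, with Nqo1 (-0.52 ± 0.10) and Prdx2 (-0.41 ± 0.11) as examples. The 10 became 4 without Ezh2 -/- replicate 3, 5 without Ezh2 -/- replicate 1 and 6 without V617F Ezh2 -/- replicates 2 or 4. Asns and Prdx2 lost their calls without Ezh2 -/- replicate 3 (adjusted p = 0.0769 and 0.0501). Of 50 cytosolic ribosomal protein genes, 0 were higher and 9 lower, with a median log2 change of -0.06. The shares over all tested genes were 19.1% higher and 22.5% lower. The 9 became 0 without Ezh2 -/- replicate 3, 2 without V617F Ezh2 -/- replicate 2, 3 without V617F Ezh2 -/- replicates 3 or 4 or among female libraries alone, 4 without a filter on low counts or in a fit of the compared groups alone, 5 with RLE scaling or without the sex term and 15 without V617F Ezh2 -/- replicate 1.

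By size alone, the 15 largest increases among well-expressed, non-overlapping genes were led by Cd34, Clu, Selp, Tbxas1 and Pf4. They further held Scarf1 (3.99 ± 0.70), the cation channel gene Trpc6 (3.96 ± 0.64), Timp3, Esam, the neutrophil genes Elane (3.85 ± 0.83), Lcn2 (3.76 ± 0.58) and S100a8, the adaptor gene Sla2 (3.85 ± 0.61), Dgkg (3.73 ± 0.55) and Gucy1a1 (3.71 ± 0.57), a subunit of soluble guanylate cyclase. The largest decreases were led by Ccl5, at 0.971 to 6.40 CPM in V617F Ezh2 -/- (median 4.18) and 10.8, 9.95, 12.7 and 23.9 CPM in Ezh2 -/-, and Gjb2, a connexin gene (-2.08 ± 0.21). After Il2rb and Spry4 came Olfm1 (-1.61 ± 0.21), Cyp1a1 (-1.61 ± 0.28), the epoxide hydrolase gene Ephx2 (-1.58 ± 0.17), Ehd2 (-1.40 ± 0.17), Gsta4 (-1.39 ± 0.24), the membrane protease gene Hpn (-1.37 ± 0.18), Slc26a1 (-1.32 ± 0.24), Trim2 (-1.29 ± 0.21), Ddah1 (-1.29 ± 0.24) and A730046J19Rik (-1.27 ± 0.18). Ephx2 measured 13.1 to 20.9 CPM in V617F Ezh2 -/- (median 17.1) and 53.4, 46.9, 54.2 and 47.2 CPM in Ezh2 -/- and Hpn measured 24.3 to 42.2 CPM in V617F Ezh2 -/- (median 33.1) and 92.7, 85.1, 93.7 and 78.7 CPM in Ezh2 -/-; in neither did the groups overlap. 

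Whether V617F acted differently without Ezh2 was tested as the difference between its effects. Against the effect in Ezh2 +/+, 2663 genes differed (19.1% of tested genes), 1180 in the positive direction (8.47%) and 1483 in the negative (10.6%). Against the effect in Ezh2 +/-, 149 differed (1.07%), 114 positive (0.818%) and 35 negative (0.251%). Both counts depended on single libraries. The first became 297 to 1763 without V617F Ezh2 -/- replicates 2 or 4, Ezh2 -/- replicates 1 or 3, V617F Ezh2 +/+ replicates 2, 3 or 4 or Ezh2 +/+ replicates 1 or 5 and 4633 without V617F Ezh2 +/+ replicate 1, and it was 128 among female libraries alone, a fit that holds the V617F Ezh2 +/+ library that went against its labelled sex. The library whose omission gave the highest count is the one that went against its labelled sex. The count against Ezh2 +/- became 38 to 91 without V617F Ezh2 -/- replicates 2, 3 or 4, Ezh2 -/- replicates 1, 2 or 3, V617F Ezh2 +/- replicates 2, 3 or 4 or Ezh2 +/- replicates 1, 2 or 5 and 247 to 1402 without V617F Ezh2 -/- replicate 5, Ezh2 -/- replicate 4, V617F Ezh2 +/- replicates 1 or 6 or Ezh2 +/- replicate 4, and it was 512 in DESeq2 and 21 with a filter at a mean of 1 CPM. V617F changed 9.87% of tested genes in Ezh2 +/- (3.35% higher, 6.51% lower) and 23.6% in Ezh2 +/+ (9.73% higher, 13.9% lower). Of the genes called higher in Ezh2 -/-, 595 were also called higher in Ezh2 +/+ (22.3% of the calls in Ezh2 -/- and 43.9% of those in Ezh2 +/+), and 302 in Ezh2 +/- (11.3% of the calls in Ezh2 -/- and 64.7% of those in Ezh2 +/-). Of the genes called lower in Ezh2 -/-, 751 were also called lower in Ezh2 +/+ (24% and 38.9% of the calls in these genotypes), and 416 in Ezh2 +/- (13.3% and 45.9%).

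Some platelet genes showed a larger V617F effect without Ezh2 than in Ezh2 +/+. Selp averaged 33.2 ± 5.65 CPM in V617F Ezh2 -/- against 1.34 ± 0.612 in Ezh2 -/-, 29.6 ± 19.4 in V617F Ezh2 +/- against 7.18 ± 6.21 in Ezh2 +/-, and 22.9 ± 17.7 in V617F Ezh2 +/+ against 6.95 ± 7.21 in Ezh2 +/+. Its effect in Ezh2 -/- exceeded that in Ezh2 +/+ by a log2 of 2.54 ± 0.85 (adjusted p = 0.039); against Ezh2 +/- the difference of 2.66 ± 0.81 did not pass (adjusted p = 0.0968). Itgb3 (2.29 ± 0.76) and Slc35d3 (2.54 ± 0.60) likewise differed from Ezh2 +/+. Pf4 averaged 161 ± 38.8 CPM in V617F Ezh2 -/- against 7.43 ± 1.604 in Ezh2 -/-, 122 ± 69.2 in V617F Ezh2 +/- against 23.7 ± 12.8 in Ezh2 +/-, and 102 ± 61.0 in V617F Ezh2 +/+ against 22.99 ± 19.6 in Ezh2 +/+, and its difference of effects was 1.99 ± 0.70 against Ezh2 +/+ (adjusted p = 0.048). In the other platelet lists, 2 of 17 adhesion, 6 of 19 signalling and 1 of 12 cytoskeletal genes differed positively from Ezh2 +/+. In these lists 0 genes differed positively from Ezh2 +/-. Of the 22 tested granule genes, 7 differed in the positive direction from Ezh2 +/+. From Ezh2 +/-, 0 did (13 at an unadjusted p under 0.05, and 2 in DESeq2). Of all tested genes, 8.47% and 0.818% differed in that direction. The 7 became 0 without Ezh2 -/- replicate 3 and 0 to 16 over all libraries left out singly, the highest without V617F Ezh2 +/+ replicate 1, and 1 among female libraries alone; the 0 became 5 without Ezh2 -/- replicate 4 and 6 without V617F Ezh2 +/- replicate 1. For Selp the difference was lost without V617F Ezh2 -/- replicates 2 or 4, Ezh2 -/- replicates 1, 2 or 3, V617F Ezh2 +/+ replicates 2, 3 or 4 or Ezh2 +/+ replicates 1 or 5, without a filter on low counts or among female libraries alone (adjusted p up to 0.121). For Itgb3 the difference was lost without V617F Ezh2 -/- replicates 2 or 4, Ezh2 -/- replicates 1, 2 or 3, V617F Ezh2 +/+ replicates 2, 3 or 4 or Ezh2 +/+ replicates 1, 3 or 5, without a filter on low counts or among female libraries alone (adjusted p up to 0.114). For Slc35d3 the difference was lost without Ezh2 -/- replicate 3 (adjusted p = 0.053). For Pf4 the difference was lost without V617F Ezh2 -/- replicates 2, 3, 4 or 6, Ezh2 -/- replicates 1, 2 or 3, V617F Ezh2 +/+ replicates 2, 3 or 4 or Ezh2 +/+ replicates 1, 3 or 5, without a filter on low counts or among female libraries alone (adjusted p up to 0.132).

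MHC class II and interferon genes also differed. Cd74, the class II invariant chain, averaged 29.4 ± 17.9 CPM in V617F Ezh2 -/- against 25.7 ± 7.86 in Ezh2 -/-, 14.01 ± 10.8 in V617F Ezh2 +/- against 86.0 ± 33.3 in Ezh2 +/-, and 18.4 ± 9.43 in V617F Ezh2 +/+ against 108 ± 57.5 in Ezh2 +/+. The V617F effect was 0.28 ± 0.49 in Ezh2 -/-, -2.52 ± 0.50 in Ezh2 +/- and -2.55 ± 0.54 in Ezh2 +/+, and differed by 2.83 ± 0.73 (adjusted p = 0.0195) and 2.80 ± 0.69 (adjusted p = 0.0465) from the effects in Ezh2 +/+ and Ezh2 +/-. H2-Aa and H2-Eb1 differed from Ezh2 +/+ by 2.72 ± 0.74 and 2.68 ± 0.73, and Oas2 by 2.61 ± 0.67. In all, 8 of 10 class II genes and 19 of 35 interferon-stimulated genes differed from Ezh2 +/+ in the positive direction. Of all tested genes, 8.47% did. From Ezh2 +/-, 5 and 1 differed in that direction, against 0.818% of all tested genes. The 8 and 19 became 1 and 3 without Ezh2 -/- replicate 3, 4 and 10 without Ezh2 +/+ replicate 1, 5 and 9 without V617F Ezh2 +/+ replicate 4, 7 and 11 without Ezh2 +/+ replicate 5 and 1 and 4 among female libraries alone, and the 5 became 0 to 8 over single libraries left out. Lymphoid genes moved beside them: Tcf7, a T cell factor, differed by 2.45 ± 0.67 from Ezh2 +/+ and 2.58 ± 0.63 from Ezh2 +/-, Cd7 by 2.36 ± 0.55 and Evl by 2.15 ± 0.52 from Ezh2 +/-. The T and NK list summed to 50.3 to 106 CPM in V617F Ezh2 +/+ and 80.4 to 246 CPM in Ezh2 +/+, and the part of lymphoid cells in these differences was not tested. For Cd74 the difference from Ezh2 +/+ was lost without Ezh2 -/- replicate 3 or Ezh2 +/+ replicate 1 or among female libraries alone (adjusted p up to 0.0617). For H2-Aa, H2-Eb1 and Tcf7 the difference from Ezh2 +/+ was lost without Ezh2 -/- replicate 3, V617F Ezh2 +/+ replicate 4 or Ezh2 +/+ replicate 1 or among female libraries alone (adjusted p up to 0.0699, 0.0717 and 0.0639). For Oas2 the difference from Ezh2 +/+ was lost without Ezh2 -/- replicate 3 or among female libraries alone (adjusted p up to 0.0757). The differences of Cd74, H2-Aa, H2-Eb1, Tcf7, Cd7 and Evl from Ezh2 +/- were lost without V617F Ezh2 -/- replicates 2, 3 or 4, Ezh2 -/- replicates 1, 2 or 3, V617F Ezh2 +/- replicates 2, 3 or 4 or Ezh2 +/- replicates 2 or 5, without a filter on low counts or with a filter at a mean of 1 CPM, and some of them also without V617F Ezh2 +/- replicate 5, Ezh2 +/- replicate 1 or V617F Ezh2 -/- replicate 6, in a fit of the compared groups alone, among female libraries alone or without the sex term (adjusted p up to 0.148).

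Among the genes with negative differences, Podxl, a sialomucin of progenitors and vessels, averaged 318 ± 46.9 CPM in V617F Ezh2 -/- against 118 ± 29.1 in Ezh2 -/-, 233 ± 48.2 in V617F Ezh2 +/- against 14.5 ± 3.54 in Ezh2 +/-, and 251 ± 50.8 in V617F Ezh2 +/+ against 15.8 ± 2.98 in Ezh2 +/+. Its V617F effect was 1.42 ± 0.19 in Ezh2 -/-, 4.0 ± 0.23 in Ezh2 +/- and 3.99 ± 0.21 in Ezh2 +/+, and it differed by -2.58 ± 0.27 from Ezh2 +/- (adjusted p = 6.94e-06) and by -2.57 ± 0.27 from Ezh2 +/+ (adjusted p = 7.07e-06). Fam124a averaged 21.5 ± 5.68 CPM in V617F Ezh2 -/- against 14.3 ± 3.84 in Ezh2 -/-, 18.7 ± 8.98 in V617F Ezh2 +/- against 2.31 ± 0.458 in Ezh2 +/-, and 19.1 ± 2.53 in V617F Ezh2 +/+ against 1.498 ± 0.236 in Ezh2 +/+, with a difference of -3.10 ± 0.40 from Ezh2 +/+. Rps6ka6 (-2.31 ± 0.40), Sfrp4 (-1.93 ± 0.31), Cpd (-1.79 ± 0.25), Cda (-1.79 ± 0.33) and Rnf128 (-1.76 ± 0.36) followed. For Sdc1 the V617F effect was -0.89 ± 0.17 in Ezh2 -/- and 0.84 ± 0.18 in Ezh2 +/+, a difference of -1.73 ± 0.24 (adjusted p = 0.000396). Hs6st2 differed from Ezh2 +/- (-1.68 ± 0.33). Among positive differences from Ezh2 +/- were Xlr4b (1.32 ± 0.27) and the basement membrane gene Nid1 (1.10 ± 0.25), whose effects in Ezh2 -/- were 1.08 ± 0.20 and -0.44 ± 0.17. Nid1 lost its call without V617F Ezh2 -/- replicates 2, 3, 4 or 6 or Ezh2 -/- replicates 2, 3 or 4, with RLE scaling, without a filter on low counts, with a filter at a mean of 1 CPM or among female libraries alone (adjusted p up to 0.156). For Rnf128 the difference was lost among female libraries alone (adjusted p = 0.0544). For Hs6st2 the difference from Ezh2 +/- was lost among female libraries alone or with the replicate block (adjusted p up to 0.0611). For Xlr4b the difference from Ezh2 +/- was lost without Ezh2 -/- replicate 1 or Ezh2 +/- replicate 2 or among female libraries alone (adjusted p up to 0.0584). For Nid1 the difference from Ezh2 +/- was lost without V617F Ezh2 -/- replicate 2, Ezh2 -/- replicates 1 or 3 or Ezh2 +/- replicates 1, 2 or 5, with a filter at a mean of 1 CPM or without the sex term (adjusted p up to 0.0871). The differences of Rps6ka6, Sfrp4 and Cda from Ezh2 +/- were lost without V617F Ezh2 -/- replicates 2, 3 or 4, Ezh2 -/- replicates 1 or 3, V617F Ezh2 +/- replicates 3 or 4 or Ezh2 +/- replicates 1, 2 or 5 or with a filter at a mean of 1 CPM, and some of them also without Ezh2 -/- replicates 4 or 2, V617F Ezh2 -/- replicates 1 or 6 or V617F Ezh2 +/- replicate 2, among female libraries alone, in a fit of the compared groups alone or without a filter on low counts (adjusted p up to 0.12).

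**Figure D5:**
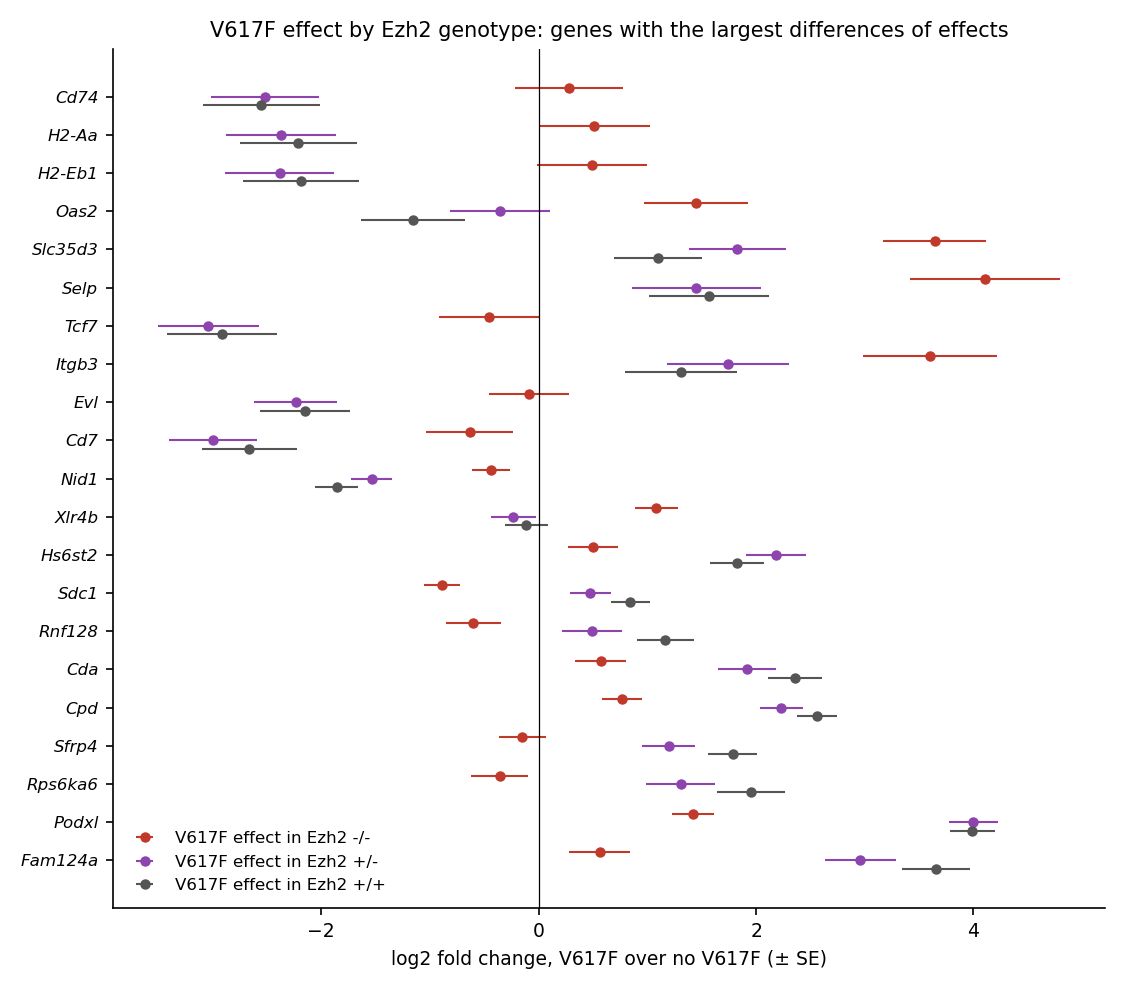
V617F effect (log2 fold change ± SE, V617F over no V617F) in Ezh2 -/-, Ezh2 +/- and Ezh2 +/+ MEPs for the genes with the largest differences of effects. The effect on Selp is larger without Ezh2 than in Ezh2 +/+, a difference lost under 13 of 27 alternatives. Its difference from Ezh2 +/- did not pass. The effect on Podxl is smaller than in both other genotypes. That on Cd74 is near 0 without Ezh2 and at -2.52 in Ezh2 +/- and -2.55 in Ezh2 +/+.

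DNA replication genes differed from Ezh2 +/+ in 1 direction. Of 41 tested, 20 had a V617F effect in Ezh2 -/- that was below that in Ezh2 +/+, and 0 above. Over all tested genes, the effect was below for 10.6% and above for 8.47%. The 20 became 4 without Ezh2 -/- replicate 3, 5 without Ezh2 +/+ replicate 1, 12 without V617F Ezh2 +/+ replicate 3 or Ezh2 +/+ replicate 5, 13 without V617F Ezh2 +/+ replicate 4 and 1 among female libraries alone. Against Ezh2 +/- 0 passed (17 at an unadjusted p under 0.05, 1 in DESeq2 and 12 without V617F Ezh2 +/- replicate 1). In Ezh2 +/+ itself 1 replication gene was higher and 2 were lower with V617F. Mcm5 averaged 560.4 ± 43.4 CPM in V617F Ezh2 -/- against 736 ± 38.9 in Ezh2 -/-, 622 ± 74.8 in V617F Ezh2 +/- against 667 ± 43.9 in Ezh2 +/-, and 640.5 ± 63.4 in V617F Ezh2 +/+ against 629 ± 46.9 in Ezh2 +/+. Of 21 serine synthesis and ATF4 genes and 18 antioxidant genes, 9 each had a lower effect than in Ezh2 +/+, and 0 a higher one. The shares over all tested genes were again 10.6% and 8.47%. Over single libraries left out the 9 and 9 became 4 to 12 and 2 to 11. Both counts were lowest without Ezh2 -/- replicate 3 or Ezh2 +/+ replicate 1. Of 21 neutrophil granule genes, 0 passed in either test of difference in edgeR or DESeq2, and 1 had an unadjusted p under 0.05 in each. They were also called higher with V617F in Ezh2 +/- (13 of 21, against 3.35% of all tested genes) and Ezh2 +/+ (16 of 21, against 9.73%).

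Cish and Spry4 were changed by V617F in the other genotypes as well. For Cish the effect was 1.53 ± 0.23 in Ezh2 +/- (adjusted p = 0.0001) and 1.41 ± 0.22 in Ezh2 +/+ (adjusted p = 7.64e-05). Cish averaged 31.0 ± 5.76 CPM in V617F Ezh2 -/- against 6.45 ± 1.37 in Ezh2 -/-, 19.6 ± 4.49 in V617F Ezh2 +/- against 6.46 ± 1.71 in Ezh2 +/-, and 17.9 ± 4.35 in V617F Ezh2 +/+ against 6.62 ± 1.76 in Ezh2 +/+, and the effect in Ezh2 -/- differed from that in Ezh2 +/+ by 0.81 ± 0.30 (adjusted p = 0.0562) and from that in Ezh2 +/- by 0.69 ± 0.29 (adjusted p = 0.156), neither of which passed. For Spry4 it was -1.02 ± 0.18 (adjusted p = 0.000508) and -0.82 ± 0.18 (adjusted p = 0.00206). Spry4 averaged 3.09 ± 0.335 CPM in V617F Ezh2 -/- against 10.4 ± 1.45 in Ezh2 -/-, 2.95 ± 0.855 in V617F Ezh2 +/- against 6.73 ± 1.25 in Ezh2 +/-, and 3.41 ± 0.868 in V617F Ezh2 +/+ against 6.25 ± 1.23 in Ezh2 +/+. Its decrease was larger in Ezh2 -/- than in Ezh2 +/+ by -0.85 ± 0.24 (adjusted p = 0.0247), and the difference from Ezh2 +/- was -0.64 ± 0.24 (adjusted p = 0.131). For Spry4 the difference from Ezh2 +/+ was lost without Ezh2 -/- replicate 3, V617F Ezh2 +/+ replicate 2 or Ezh2 +/+ replicate 1 or among female libraries alone (adjusted p up to 0.109). Lin28b and Cdkn2a had low levels in the other groups. In the 4 groups that kept an Ezh2 allele, Lin28b averaged 0.0766 to 0.114 CPM and Cdkn2a 0.0164 to 0.281 CPM.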

How the data were processed

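RNA-seq was measured in 29 libraries of sorted mouse MEPs, made with standard Illumina chemistry from Trizol-LS RNA, per the labels' protocols. The authors deposited 1 table of raw counts per Entrez gene for each library, with the gene length they used, in bases. Reads were aligned with STAR to mm9, per the submitters' processing notes. No counter, annotation or strand setting is named in these notes, and reads of overlapping genes cannot be told apart. Of 18834 identifiers, 18772 were named through the RefSeq table of GRCm38.p6, and the 62 unnamed ones, which were kept in library sizes, held 0.88 to 2.68% of the counts.

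Genes were kept by edgeR's filterByExpr (minimum count 10, minimum total 15), scaled by TMM (factors 0.95 to 1.093) and tested with edgeR 4.0.16's quasi-likelihood F test in R 4.3.3, with the 6 groups and labelled sex as terms (22 residual degrees of freedom, biological coefficient of variation 18.1%). The standard error is the fold change divided by the square root of F. P-values were adjusted by Benjamini-Hochberg over all 13928 genes and called under 0.05, in this text always from edgeR unless DESeq2 1.42.0 is named. Log2 CPM values use a prior count of 2. On simulated counts of well-counted genes, the procedure recovered 87 of 100 changes of log2 1.0 and 67 of 100 of log2 0.5. It made 6 false calls among 13726 tested genes. Changes as small as the median called decrease of -0.29 were not simulated.

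The comparison, the 38 gene lists (782 genes, 779 of them in the files) and the tests were chosen with earlier results of these data known, so list counts are descriptions. Named genes are Pf4, Cish, Spry4, Ezh2 and Jak2; the 15 largest called changes in each direction among non-overlapping genes whose mean log2 CPM reached 2; up to 5 members per list and direction with the lowest adjusted p, plus members that describe a role; and the 8 largest called differences of effects in each direction. Some genes that these rules select are not reported here, and list counts include them. Other members named with their values were chosen after these were seen. Alternatives were RLE scaling, DESeq2, no filter, a filter at a mean of 1 CPM, no sex term, female libraries alone, a replicate block, a fit of the compared groups alone and leaving out each library. No 2 libraries agreed within sampling noise (lowest chi-square per degree of freedom 4.71).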

Additional observations from a re-analysis of the deposited data

Results flagged for a closer look

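Of 138 sets of 4 or 6 libraries examined for a single library far from the rest of its group, 8 were flagged, where chance flags about 1 in 20. Levels are log2 CPM. The 8 concern Ezh2 -/- replicates 3 and 4 or V617F Ezh2 -/- replicate 1. In V617F Ezh2 -/- replicate 1, Ccl5 was lowest at 0.02 and Il2rb lowest at 0.61. Ezh2 -/- replicate 4, the male library, was highest of its group for Il2rb (5.09), Spry4 (3.66) and the mean of the T and NK cell list (0.99). Ezh2 -/- replicate 3 was highest for Cyp1a1 (3.30) and for the mean of the ribosomal protein list (9.84), and lowest for the mean of the cytokine receptor list (2.5).

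The V617F effect without Ezh2 differed from the effect in Ezh2 +/+, by the test of the difference itself, for 18 named genes. The positive differences were 2.83 for Cd74, 2.72 for H2-Aa, 2.68 for H2-Eb1, 2.61 for Oas2, 2.54 for Slc35d3, 2.54 for Selp, 2.45 for Tcf7, 2.29 for Itgb3 and 1.99 for Pf4, all on the log2 scale. The negative ones were -3.10 for Fam124a, -2.57 for Podxl, -2.31 for Rps6ka6, -1.93 for Sfrp4, -1.79 for Cpd, -1.79 for Cda, -1.76 for Rnf128, -1.73 for Sdc1 and -0.85 for Spry4.

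Against the effect in Ezh2 +/-, the positive differences were 2.88 for H2-Aa, 2.87 for H2-Eb1, 2.80 for Cd74, 2.58 for Tcf7, 2.36 for Cd7, 2.15 for Evl, 1.32 for Xlr4b and 1.10 for Nid1. The negative ones were -2.58 for Podxl, -2.40 for Fam124a, -1.68 for Hs6st2, -1.67 for Rps6ka6, -1.47 for Cpd, -1.36 for Sdc1, -1.35 for Cda and -1.34 for Sfrp4. Of these, the differences of Cda, H2-Aa, H2-Eb1, Sfrp4 and Rps6ka6 were lost under 19, 18, 18, 14 and 13 of 28 alternatives.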

How the results depend on the processing

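The number of genes called in V617F Ezh2 -/- against Ezh2 -/- moved by less than 1.5 times under RLE scaling, DESeq2, both other filters, no sex term, female libraries alone, the replicate block (5667) and a fit of the compared groups alone. Leaving out single libraries gave 3197 to 6112 called genes, 1592 to 2839 higher and 1605 to 3313 lower. RLE scaling gave 2878 higher and 2604 lower genes and shifted the median of all genes to 0.00 on the log2 scale. Higher genes also outnumbered lower ones in DESeq2 (3138 and 2814) and without a filter on low counts (2739 and 2503). The same held among female libraries alone (2875 and 2300) and in a fit of the compared groups alone (3631 and 3160). It held too without V617F Ezh2 -/- replicates 2, 3 or 4. Over the 228 genes named for this comparison, 200 single results lost their call, 27 gained one and 1 changed sign: Cd74, not called at 0.28, was -0.040 without V617F Ezh2 -/- replicate 2 (-0.04 to 0.47 over single libraries left out). The libraries whose omission ended most of these calls were Ezh2 -/- replicate 3 (39 genes) and replicate 1 (25) and V617F Ezh2 -/- replicates 2 (17) and 4 (17).

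The difference of effects from Ezh2 +/+, 2663 genes, became 128 among libraries labelled female alone (87 positive, 41 negative) and 1623 with the replicate block (835 negative), and a fit of the compared groups alone gave 1818 positive genes. Leaving out single libraries gave 297 to 4633 (151 to 2224 positive, 146 to 2409 negative). The difference from Ezh2 +/-, 149 genes, became 512 in DESeq2 (331 positive, 181 negative), 21 with a filter at a mean of 1 CPM (11 and 10), 60 with the replicate block (40 and 20) and 92 in a fit of the compared groups alone (62 positive), and 15 were negative among female libraries alone. Leaving out single libraries gave 38 to 1402 (27 to 677 positive, 11 to 725 negative). The named differences lost their call 66 and 160 times in all and none changed sign. The cause of these shifts was not tested.

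Whether the replicate numbers pair the libraries is not known. Deviations of same-numbered V617F Ezh2 -/- and Ezh2 -/- libraries from their group means correlated between -0.147 and 0.134. The range was -0.33 to 0.481 in Ezh2 +/- and -0.272 to 0.324 in Ezh2 +/+. With 4 same-numbered pairs per genotype, these values are too few to decide it. With the replicate block, Stat5a, Gp5, Klf1, Gfi1b, Ikzf1 and Nid1 lost their calls. The differences of Selp, Itgb3 and Pf4 from Ezh2 +/+ were lost. So were those of Cd74, H2-Aa, H2-Eb1, Tcf7, Cd7, Evl, Hs6st2, Nid1, Sfrp4 and Cda from Ezh2 +/-. In that fit 1 gene each of the JAK-STAT5, immediate early and mast cell lists was lower, and 2 interferon-stimulated genes. The 4 lower lineage factors became 1. Depth limits genes under about 0.1 CPM, where 3 counts per library are the floor.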
